A study of Mus musculus with 16 samples.

Results

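The mouse major satellite is described here through 10 features: the repeat element GSAT_MM and 9 gene models, Gm10801, Gm10800, Gm10722, Gm10721, Gm10720, Gm10719, Gm10718, Gm10717 and Gm10715. The genes were found by their GENCODE symbols among 49585 gene identifiers, and GSAT_MM by its name among 1159 repeat elements. All 10 were present in all 3 comparisons. The names were chosen by their deposited fold changes, with the values of all 3 comparisons in view, so the fold changes and adjusted p-values of the members are given as a description and support nothing further. No threshold on a value set the edge of the group.

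The study sequenced polyadenylated RNA of mouse 2-cell embryos by Smart-seq2, which covers whole transcripts but keeps no record of the strand. Embryos of all groups came from DBA males and F1 females (C57BL/6J crossed with CBA/H) and grew in KSOM medium; 4 libraries came from non-injected embryos, 6 from embryos injected with dsLacZ, double-stranded RNA against a bacterial gene (the LacZ control), and 6 from embryos injected with double-stranded RNA against Suv39h2 (the knockdown). The design text describes pools of 5 embryos per library, whereas the extraction protocol has single embryos, and the treatment protocol mentions wild-type or mutant Suv39h1 mRNA, which no group label carries. Nothing in the labels ties a library to a separate culture or parent, so p-values measure the spread between these libraries, which may be technical.

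Major satellite is the tandem repeat that fills the pericentromeric heterochromatin of mouse chromosomes. This chromatin carries trimethylation of lysine 9 on histone H3, placed there by the methyltransferases Suv39h1 and Suv39h2 and bound by the HP1 proteins. Its transcripts are known to appear in a burst in the early mouse embryo, around the 2-cell stage, before the pericentromeres of the embryo gather into chromocenters. The member gene models are automatic annotations laid over such satellite arrays, and no function of a protein from them is assumed here.

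The repeated unit is shown first, because every value that follows depends on reads from it. The longest exon of Gm10722, 483 bases at chr9:3000962-3001444 on the plus strand (GRCm38, GENCODE M21), was compared with itself at every shift of 50 bases or more. At a shift of 234 bases, 95.2% of the overlapping bases were identical, against 68.4% at the next highest shift more than 5 bases away and a median of 30.8% over all shifts. The unit taken from this exon, and the stretches of the 2 chromosome 2 members that align to it, read 5′ to 3′ as below, with capitals marking bases that differ from the Gm10722 unit.
Gm10722: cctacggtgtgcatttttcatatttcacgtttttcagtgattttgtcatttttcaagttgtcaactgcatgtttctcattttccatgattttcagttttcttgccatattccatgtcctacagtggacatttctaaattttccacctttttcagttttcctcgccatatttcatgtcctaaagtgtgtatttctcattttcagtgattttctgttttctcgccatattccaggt
Gm10801: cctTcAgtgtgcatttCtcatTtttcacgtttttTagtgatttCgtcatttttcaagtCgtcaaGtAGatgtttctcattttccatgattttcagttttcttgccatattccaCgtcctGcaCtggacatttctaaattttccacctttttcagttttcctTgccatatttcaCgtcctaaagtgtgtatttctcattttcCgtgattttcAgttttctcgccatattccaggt
Gm10800: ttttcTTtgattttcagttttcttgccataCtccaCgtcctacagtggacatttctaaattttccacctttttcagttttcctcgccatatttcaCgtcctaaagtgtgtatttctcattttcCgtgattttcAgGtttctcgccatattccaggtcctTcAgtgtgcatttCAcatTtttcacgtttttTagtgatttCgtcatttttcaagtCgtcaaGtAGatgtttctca
These stretches lie at chr9:3001058-3001291 on the plus strand for Gm10722, at chr2:98662237-98662470 on the plus strand for Gm10801, and at chr2:98666807-98667040 on the minus strand for Gm10800. All are 234 bases long. Gm10801 differed by 17 substitutions with no gap, an identity of 92.7%. Its first base falls on base 1 by construction, because the unit was cut where the first 234 bases of the Gm10801 exon aligned. Gm10800 differed by 19 substitutions with no gap, an identity of 91.9%. Its stretch starts at base 79 of the unit, so the copies are not in the same phase along the exons.

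**Figure D1:**
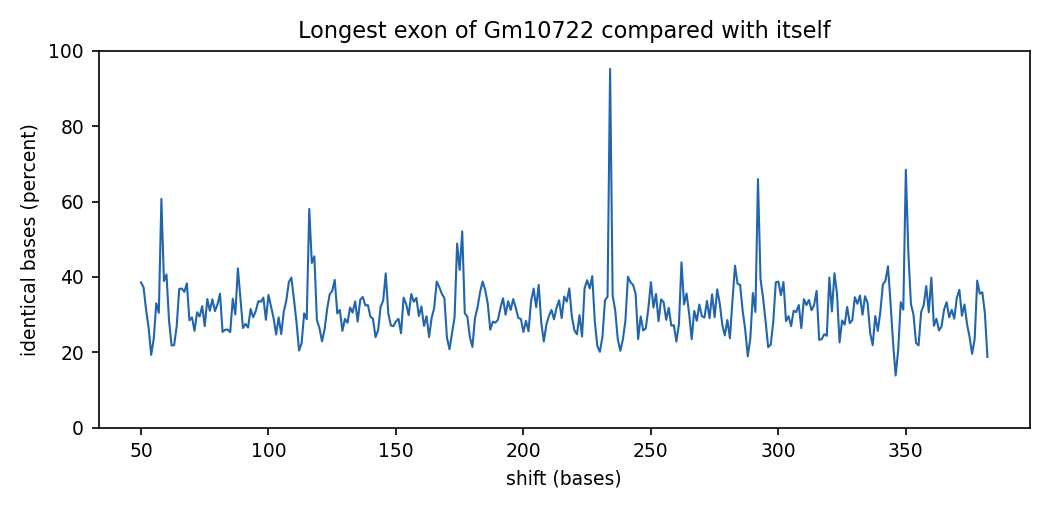
Identical bases (percent, vertical axis) when the longest exon of Gm10722 is compared with itself at each shift (bases, horizontal axis). The tallest peak, 95.2%, stands at a shift of 234 bases. Lower peaks beyond it stand at 350 bases (68.4%) and 292 bases (66.0%). At shifts shorter than 234 bases, peaks stand at 58 bases (60.7%) and 116 bases (58.0%).

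Within the unit, weaker self-matches stood at 58 bases (60.7% identical) and 116 bases (58.0%), which are shorter repeats inside the longer one. The unit is rich in thymine on the strand of the members: 65.0% of its bases are A or T and 47.0% are T. Over whole transcripts the 9 member genes held 64.0 to 65.7% A or T, against a median of 50.8% over 141767 GENCODE M21 transcripts. Their T content was 45.8 to 47.5%, against a median of 24.4%. Of all transcripts, those of the members and other satellite gene models included, 0.0402% lay above the lowest member. The longest run of A in a member was 3 or 4 bases.

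The members sit in 2 clusters. Gm10801 (ENSMUSG00000075015.3, chr2:98662237-98664083, plus strand) and Gm10800 (ENSMUSG00000075014.1, chr2:98666547-98667301, minus strand) lie 2463 bases apart on opposite strands in the interior of chromosome 2. The other 7 lie on the plus strand at the annotated start of chromosome 9, within 37395 bases. From the first to the last these are Gm10722 (chr9:3000922-3002330), Gm10721 (chr9:3013140-3014344), Gm10720 (chr9:3015654-3017210), Gm10719 (chr9:3017408-3021593), Gm10718 (chr9:3023547-3025218), Gm10717 (chr9:3025417-3033289) and Gm10715 (chr9:3036877-3038316). All 9 are annotated as protein coding with no UTR, so their lengths are coding lengths, and single transcripts ran from 504 to 684 bases.

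Shared reads were gauged by cutting the transcripts into words of 24 bases and looking each word up on both strands. Of the words of a chromosome 9 member, 74.5% (Gm10715) to 96.4% (Gm10720) were also found in another chromosome 9 member. The share in the chromosome 9 members was 42.4% for Gm10800 and 36.4% for Gm10801. In pairs, 93.3% of the words of Gm10720 were found in Gm10719 and 85.0% of those of Gm10721 in Gm10717, while 39.1% of the words of Gm10801 were found in its neighbour Gm10800. A read from one array can therefore match several members, and the 9 genes are not separate measurements of satellite RNA. Which reads GSAT_MM shares with them was not tested. Each member's own count is uncertain, since the counting of reads with several matches was not given in the sources used here.

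**Figure D2:**
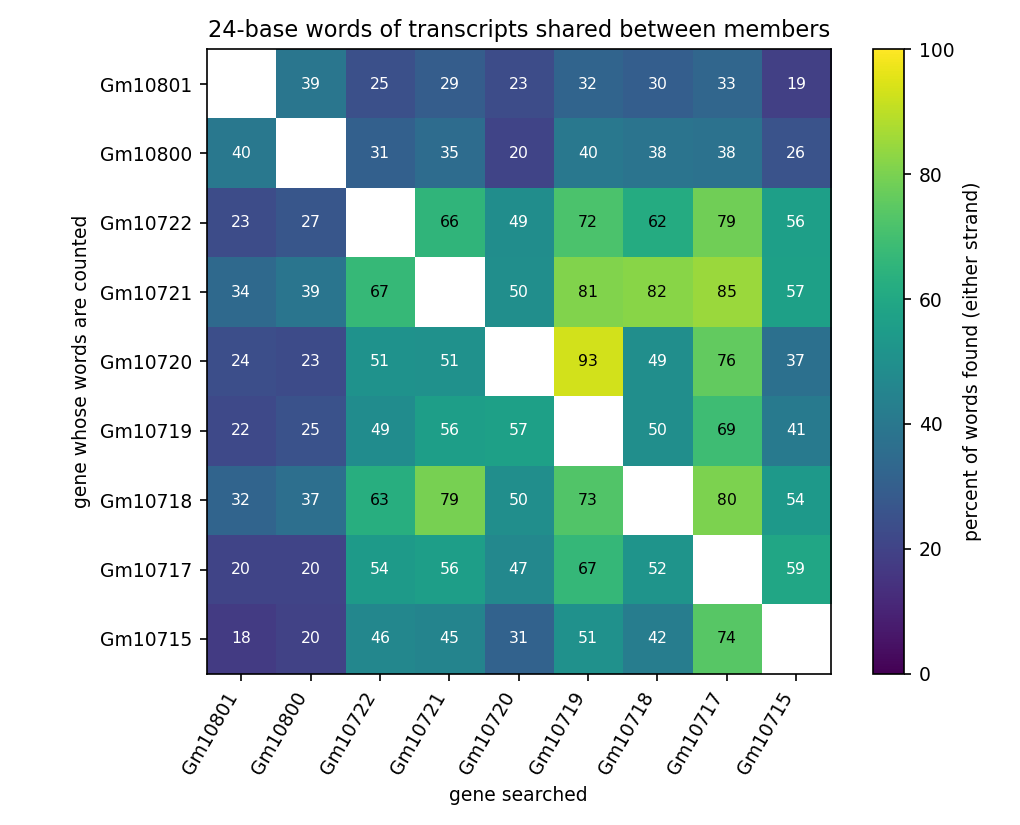
Percent of the 24-base words of each member gene's transcripts (vertical axis) found on either strand in each other member gene (horizontal axis), coloured from 0 to 100 percent. Shares between chromosome 9 members run from 31.4% (Gm10715 in Gm10720) to 93.3% (Gm10720 in Gm10719), and the highest share of a chromosome 2 member is 40.2% (Gm10800 in Gm10801).

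The longest exon of each other member was also aligned to the repeated unit. Identity to the unit was 93.4 to 96.0% for the 6 other chromosome 9 members, 92.8% for Gm10800 and 88.9% for Gm10801.

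Outside the members, exactly 4 of 55341 gene symbols held any of the chromosome 9 words of 24 bases. Gm17535 (chr9:3034599-3035805, plus strand) had 96.3% of its words in the set and Gm11168 (chr9:3003346-3006948, plus strand) had 84.5%. Gm21738, the single satellite gene model on chromosome 14 (chr14:19415857-19418930, minus strand), had 64.1%. The long noncoding RNA Gm26870 (chr9:3000282-3038313, minus strand) had 90.8% and lies antisense over all 7 chromosome 9 members, with 18.1% T. Since the libraries do not record strand, reads cannot be told apart where an exon of Gm26870 coincides with an exon of a member. How far their exons coincide was not tested.

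The members differed widely in level. Divided by the length of all exons, the mean normalized count in the authors' deposited table was 772 per kb for Gm10800, above 98.8% of the genes detected. It was 184 per kb for Gm10801 and 73.5 per kb for Gm10718. Gm10722 had 26.1, Gm10720 11.2, Gm10715 7.84, Gm10719 5.82 and Gm10717 5.60 mean counts per kb, and Gm10721 was lowest at 1.34, below the median of 3.38 over detected genes. These are means over libraries by the authors, with no value for a single library, so neither a spread of levels nor an order tested against it can be given, and sequencing depth is unknown. The non-member Gm21738 reached 521 per kb and the antisense Gm26870 66.4 per kb. Among the members, the 2 on chromosome 2, which share the fewest words with the rest, stood at the top. A link between shared words and level was not tested.

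The values below are the authors' own comparisons by DESeq2, given as log2 fold change ± standard error, and shrunken according to the table names, which understates changes at low counts. A mean count is the mean over libraries of counts divided by the authors' size factors. A feature is called where the deposited adjusted p is under 0.05. The 3 comparisons share libraries pairwise and are not independent: for the member genes, the knockdown over non-injected value is the sum of the other 2 to within 4.59e-10. As a check of the labels, Suv39h2, the targeted methyltransferase, fell by 1.95 ± 0.28 (adjusted p = 4.72e-08, DESeq2) in knockdown versus LacZ control in the authors' deposited table, with 0.16 ± 0.29 in LacZ control versus non-injected. The 9 matched 2-cell markers had mean counts from 257 to 2987 with none at 0, and the 11 oocyte markers from 304 to 26588. Of 10 cumulus and granulosa markers, 2 reached a mean count of 10, Inhba was at 0 and the sum was 58.1. Of 7 sperm markers none reached 10, Smcp was at 0 and the sum was 13.6. Fewer transcripts per embryo and a smaller share of total RNA cannot be told apart in such libraries.

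For the repeats, no header states which group the signs refer to. They are read here as the second group in the table name over the first one. In the order knockdown over LacZ control, knockdown over non-injected and LacZ control over non-injected, the RNA repeat 7SK then has -0.22 ± 0.25, 0.11 ± 0.26 and 0.32 ± 0.25 in the authors' deposited tables. The gene Rn7sk (mean count 7.02) has -0.23 ± 0.40, 0.18 ± 0.40 and 0.41 ± 0.40, so most of these values lie within 1 standard error of zero and their shared signs are weak ground for the direction. In the same order MTA_MM, a retroviral element found in many oocyte transcripts, had 0.22 ± 0.23, 0.63 ± 0.20 (adjusted p = 0.0147, DESeq2) and 0.35 ± 0.26 in the authors' deposited tables. The median of the 11 oocyte marker genes was 0.23, 0.76 and 0.48. MTA_MM was chosen for this after its values were seen. Under the opposite reading every sign of a repeat given here would turn.

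In knockdown versus LacZ control, the satellite repeat and 2 of the 9 member genes were called lower in the knockdown. GSAT_MM fell by 1.14 ± 0.28 (log2) in the authors' deposited table, a 2.21-fold lower level (adjusted p = 0.0182 by DESeq2). It had the lowest log2 fold change of the 1151 repeat elements with a p-value, and would have the highest if the signs were read the other way, at a mean count of 561. All 9 member genes had values below zero, from -1.67 to -0.30 with a median of -1.01, beside a median of 0.02 over 33028 genes with a p-value, of which 44.0% lay below zero. An adjusted p was deposited for 6 of the 9, and 2 were called lower and none higher; the background in that comparison was 0.533% of genes called lower and 0.899% called in either direction, and 0.35% of repeats called, 0.117% lower as the signs are read here or 0.233% under the opposite reading. No reading is drawn from this share, because the members were named with it known.

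Gm10801 fell by 1.67 ± 0.32 in the authors' deposited table, 3.17-fold lower in the knockdown than in the LacZ control (adjusted p = 0.00385, DESeq2), at a mean count of 92.5. Gm10717, the chromosome 9 gene with 9 annotated transcripts, fell by 1.35 ± 0.37, 2.54-fold lower (adjusted p = 0.0488, DESeq2), at a mean count of 21.6 in the authors' deposited table. With p-values adjusted over every gene that has one, the adjusted p of Gm10717 was 0.0797, so that call was lost, and that of Gm10801 was 0.00192. Both called members have a mean count well below that of Gm10800, the neighbour of Gm10801 and the most abundant member. Gm10800 itself had -0.67 ± 0.38 (adjusted p = 0.452, DESeq2) at a mean count of 509 in the authors' deposited table, and did not pass.

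Among the other chromosome 9 members, the authors' deposited table gives Gm10718 -1.01 ± 0.35 (adjusted p = 0.137, DESeq2) and Gm10722, from which the unit was taken, -1.02 ± 0.38 (adjusted p = 0.150). Gm10719 had -0.46 ± 0.40 (adjusted p = 0.642) in the same deposited table by the authors' DESeq2 fit. Gm10720 had -1.10 ± 0.40 with an unadjusted p of 0.00543 from DESeq2, and Gm10715 had -0.96 ± 0.40 with an unadjusted p of 0.0203. Gm10721, with a mean count of 0.897, had -0.30 ± 0.28. The deposited table holds no adjusted p for these last 3, whose mean counts lie under 7.93, the smallest with one in the authors' comparison. At an unadjusted p under 0.05, 6 of the 9 members were lower, where 4.11% of all genes were.

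In knockdown versus non-injected the satellite repeat was called lower and no member gene was called. GSAT_MM fell by 0.92 ± 0.30 in the authors' deposited table, 1.89-fold lower in the knockdown (adjusted p = 0.0231, DESeq2), the fourth lowest of 1143 repeats, or the fourth highest under the opposite reading of the signs. In this comparison 6.62% of repeats were called, 3.02% called lower as read here or 3.6% under the opposite reading. This call rests on the authors' adjustment: the adjusted p was 0.108 when taken over the repeats of that table alone and 0.0579 over repeats and genes together. The member genes ran from -1.05 to -0.28, with a median of -0.59 beside 0.03 over all genes. All 9 lay below zero, as did 42.0% of all genes. In this comparison the 9 matched 2-cell marker genes had a median of 0.83, against -0.06 in knockdown over LacZ control, and their part in the satellite values was not tested.

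No member gene was called by DESeq2 there, of 6 with an adjusted p, where 15.2% of genes were called and 7.76% called lower. Lowest were Gm10717 with -1.05 ± 0.38 (adjusted p = 0.0560) and Gm10801 with -0.99 ± 0.34 (adjusted p = 0.0545) in the authors' deposited table by DESeq2. These 2 were also the members with an unadjusted p under 0.05, a mark that 6.83% of genes reached in the lower direction. Gm10722 had -0.61 ± 0.39 (adjusted p = 0.287, DESeq2) and Gm10719 -0.59 ± 0.40 (adjusted p = 0.362) in the authors' deposited table. Gm10718 had -0.52 ± 0.36 (adjusted p = 0.442, DESeq2) and Gm10800 -0.41 ± 0.39 (adjusted p = 0.650). Gm10720, Gm10715 and Gm10721 had -0.60 ± 0.39, -0.48 ± 0.40 and -0.28 ± 0.26, with no adjusted p in the authors' deposited table.

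In LacZ control versus non-injected, which compares an injection of unrelated double-stranded RNA with no injection, no member was called in either direction. GSAT_MM had 0.37 ± 0.20 (adjusted p = 0.548, DESeq2) in the authors' deposited table and stood 102nd from the highest of 1139 repeats (from the lowest under the opposite reading of the signs). The 9 matched 2-cell marker genes had a median log2 fold change of 0.75 in the same comparison, and their part in the satellite values was not tested. None of the 943 repeats with an adjusted p was called, a share of 0%, and 38 repeats had an unadjusted p under 0.05. Of the 9 member genes, all with an adjusted p and none called by DESeq2 where 0.792% of genes were, 8 had values above zero. Among all genes 48.3% lay below zero. Gm10721, counted among the 8, had a Wald statistic of the opposite sign (-0.03), so its direction is not settled. The median of the 9 member genes was 0.41 beside 0.00 over all genes. Their median standard error was 0.39, about as large as that median.

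Gm10801 had the highest of these values, 0.68 ± 0.34 (adjusted p = 0.667, DESeq2) in the authors' deposited table, and was the single member with an unadjusted p under 0.05, at 0.0484, where 3.93% of genes were higher by that mark. Gm10720, Gm10718 and Gm10715 had 0.49 ± 0.39, 0.49 ± 0.36 and 0.49 ± 0.40, Gm10722 0.41 ± 0.39, Gm10717 0.30 ± 0.38 and Gm10800 0.27 ± 0.40 in the authors' deposited table. Gm10721 had 0.02 ± 0.26 and Gm10719 -0.13 ± 0.40.

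**Figure D3:**
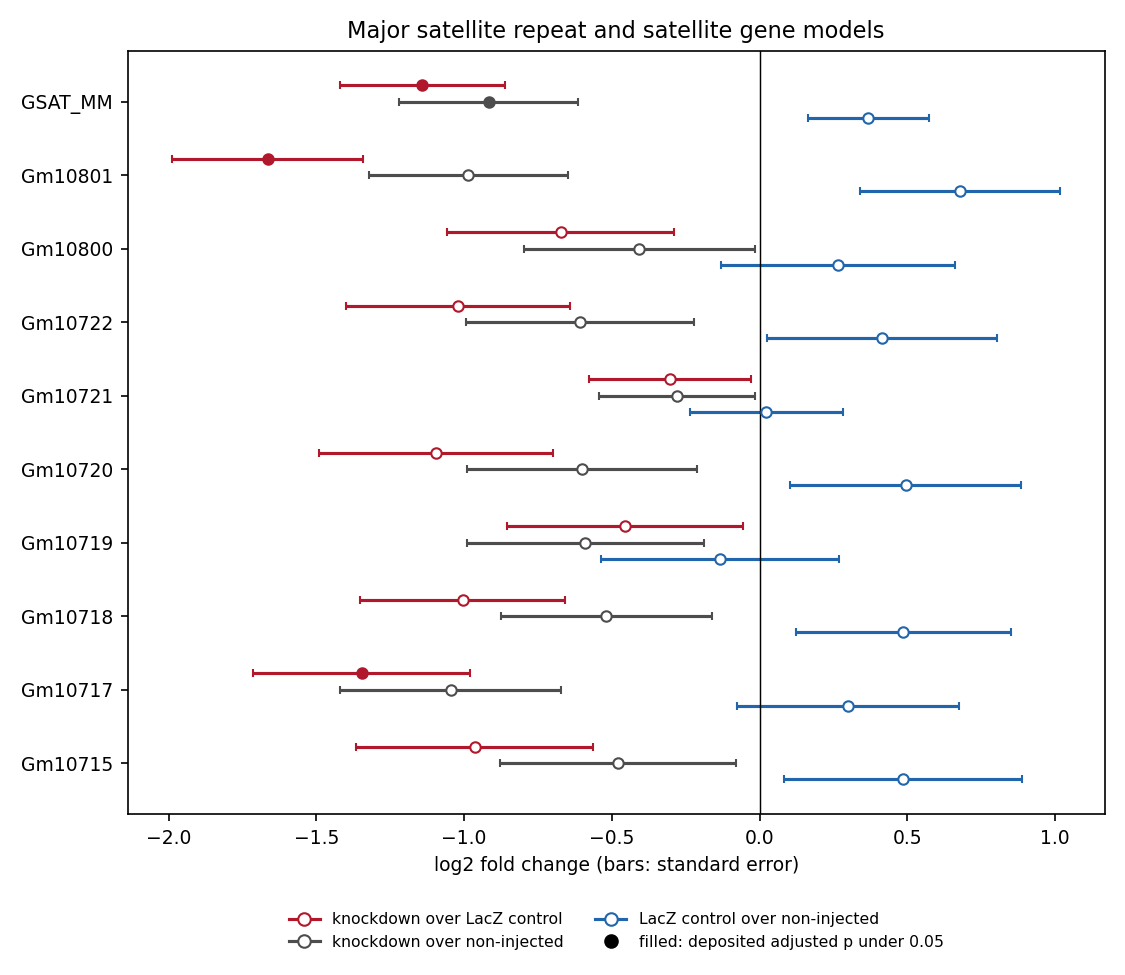
Log2 fold change (horizontal axis, bars show the standard error) of GSAT_MM and the 9 member genes (vertical axis) in the authors' 3 comparisons, with filled points where the deposited adjusted p is under 0.05. Red and grey points, the knockdown over LacZ control and over non-injected, lie left of zero for all 10 features; blue points, LacZ control over non-injected, lie right of zero for all but Gm10719 (-0.13).

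Precision was set beside that of other genes or repeats of like mean count. Gm10800 had a standard error of 0.385 in knockdown versus LacZ control, larger than that of 99.8% of 2115 genes within 1.5 times its mean count, whose median was 0.225. For Gm10801 the standard error of 0.324 exceeded 75.9% of 2386 such genes, with a median of 0.298. GSAT_MM, at 0.279, exceeded 98.9% of 92 repeats of like mean count in that comparison (median 0.196), 95.8% of 95 in knockdown versus non-injected, and 56.0% of 84 in LacZ control versus non-injected. Values of single libraries were not used here, so whether 1 library sets these errors was not tested.

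**Figure D4:**
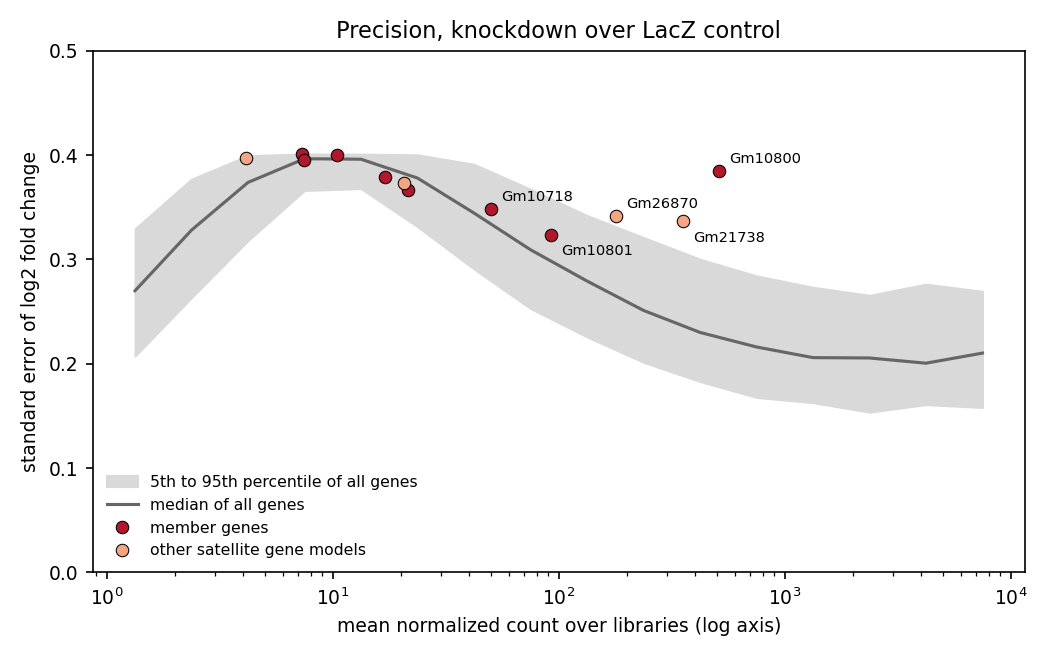
Standard error of the log2 fold change of knockdown over LacZ control (vertical axis) against the mean normalized count over libraries (horizontal axis, log scale), for member genes (red) and other satellite gene models (orange), with the median and the range from the 5th to the 95th percentile of all genes in grey. Gm10800 (0.385), Gm21738 (0.337) and Gm26870 (0.341) lie above the grey band; the other points lie in it or at its edge, and Gm10721, with a mean count under 1, is not drawn.

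The other gene models of satellite sequence were not used to name the members, but they share sequence with them. They may share reads too and are no independent evidence. In knockdown over LacZ control all 4 lay below zero, with a median of -1.01. Gm11168 had -1.32 ± 0.37 (adjusted p = 0.0579, DESeq2), Gm26870 -1.07 ± 0.34 (adjusted p = 0.0958) and Gm21738 -0.95 ± 0.34 (adjusted p = 0.143) in the authors' deposited table. Gm17535, at a mean count of 4.11, had -0.86 ± 0.40 with no adjusted p. None of the 4 was called by DESeq2, where 0.899% of all genes were. All 4 had an unadjusted p under 0.05, a mark that 8.13% of all genes reached.

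Set against non-injected embryos, the medians of these 4 were -0.63 for the knockdown and 0.38 for the LacZ control. DESeq2 called none of them, where it called 15.2% and 0.792% of all genes. At an unadjusted p under 0.05 were 1 and 0 of them, a mark that 14.8% and 6.55% of all genes reached. Gm26870, the antisense RNA, had -0.65 ± 0.35 and 0.42 ± 0.36 in the authors' deposited tables, and Gm21738 on chromosome 14 had -0.62 ± 0.35 and 0.33 ± 0.35.

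Other satellites of the repeat tables are distinct families. SYNREP_MM had -0.64 ± 0.30 in knockdown over LacZ control in the authors' deposited table, but a Wald statistic of -0.26 (adjusted p = 0.942, DESeq2), far smaller than the ratio of its fold change to its error. In LacZ control over non-injected its fold change of 0.51 ± 0.30 and its statistic of -0.81 had opposite signs in the authors' deposited table, so no direction is given for it. Such opposite signs held for 2.78%, 2.19% and 1.76% of repeats in the 3 comparisons, and for 5.38%, 5.67% and 5.20% of genes. Among the members, only Gm10721 showed one, in LacZ control over non-injected.

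MURSATREP1 had -0.36 ± 0.20 (adjusted p = 0.425, DESeq2) in knockdown over LacZ control and fell by 0.44 ± 0.15 (adjusted p = 0.0249) in knockdown over non-injected, in the authors' deposited tables. IMPB_01 had 0.40 ± 0.19 (adjusted p = 0.289, DESeq2) and rose by 0.52 ± 0.20 (adjusted p = 0.0482) in the same deposited comparisons of the authors. Both calls were lost when p-values were adjusted over repeats alone, at 0.115 and 0.184. MMSAT4 had -0.15 ± 0.24 and ZP3AR -0.28 ± 0.20 in knockdown over LacZ control in the authors' deposited table, and MURSAT1 had a mean count of 1.48. Of these 6 repeats, DESeq2 called 0 in knockdown versus LacZ control, where it called 0.35% of all repeats, and 1 had an unadjusted p under 0.05, as did 6.69% of all repeats. It called 2 when the knockdown was set against non-injected embryos, where it called 6.62% of all repeats. It called 0 between LacZ control and non-injected embryos, and 0 of the 6 had an unadjusted p under 0.05 there, a mark that 3.34% of all repeats reached. The difference between GSAT_MM and these repeats was not tested.

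**Figure D5:**
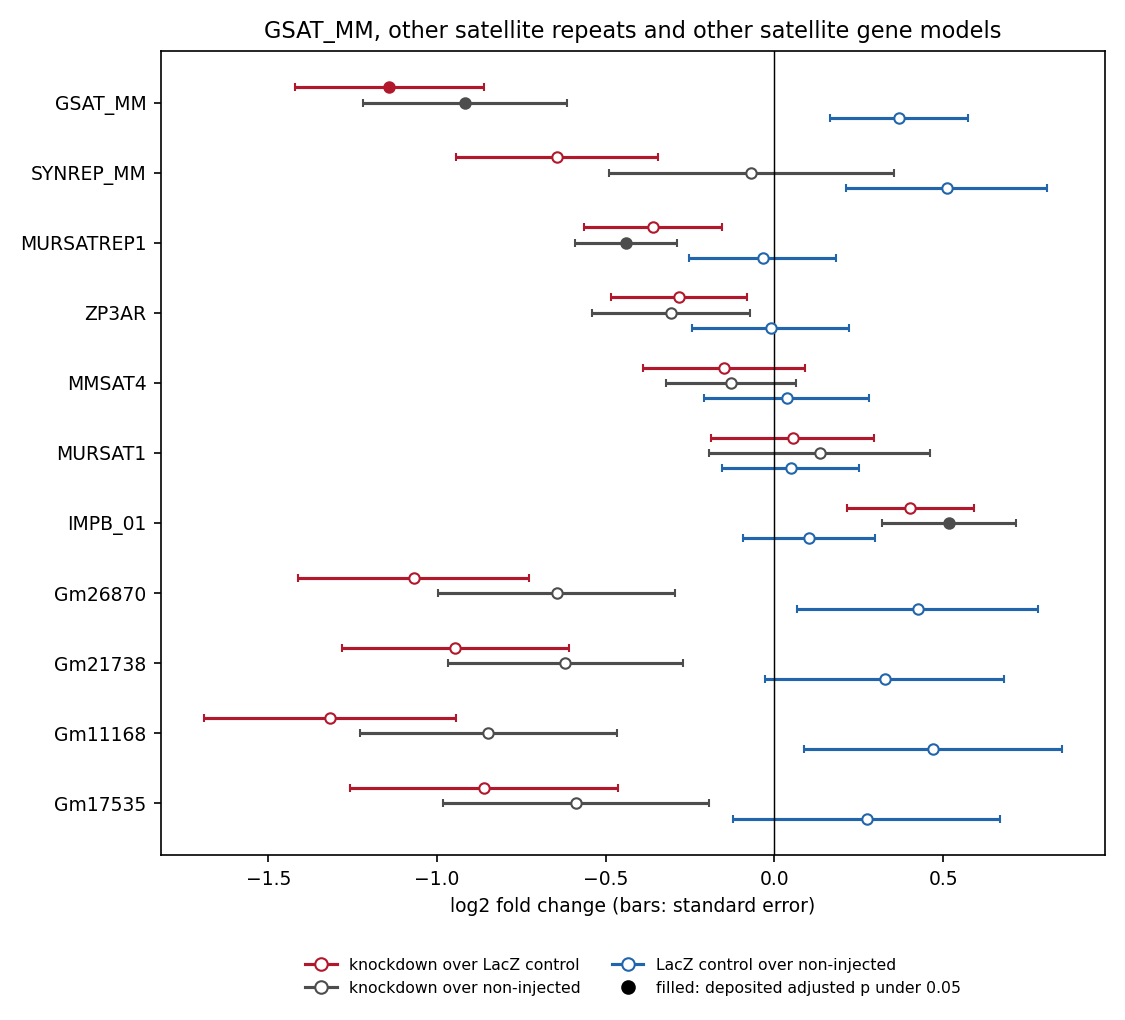
Log2 fold change (horizontal axis, bars show the standard error) of GSAT_MM, 6 other satellite repeats and 4 other gene models of satellite sequence (vertical axis) in the authors' 3 comparisons, with filled points where the deposited adjusted p is under 0.05. The 4 gene models lie near GSAT_MM (-1.14 in red), between -1.32 and -0.86, and of the other satellite repeats 4 of 6 lie below zero in red, SYNREP_MM (-0.64), MURSATREP1 (-0.36), ZP3AR (-0.28) and MMSAT4 (-0.15), and MURSAT1 (0.05) and IMPB_01 (0.40) above it. SYNREP_MM is drawn at its deposited fold change, from which no direction is read.

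The nearest genes with an adjusted p beside the clusters carry no satellite words and were not called in any comparison. Genes without an adjusted p were passed over, so these need not adjoin the clusters. Api5, 4224101 bases before the chromosome 2 pair, had -0.20 ± 0.24 in knockdown over LacZ control (adjusted p = 0.781, DESeq2), and B230118H07Rik, 2893480 bases after it, had -0.17 ± 0.39 (adjusted p = 0.834) in the authors' deposited table. Beyond the chromosome 9 cluster, 4930433N12Rik at a distance of 95531 bases had 0.18 ± 0.38 (adjusted p = 0.862, DESeq2) in the authors' deposited table. No gene with an adjusted p was found wholly before that cluster.

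The genes outside the members whose pattern was most like theirs were sought among 7721 genes with a mean count of 100 or more, by distance from the members' median in the log2 fold changes of knockdown over LacZ control and LacZ control over non-injected. Of the 5 nearest, 2 were the satellite gene models Gm26870 (distance 0.0650) and Gm21738 (0.106). The others were Higd1a (0.0717), Gm28867 (0.0993) and Zcchc10 (0.102). Higd1a, a mitochondrial inner membrane protein, had -0.97 ± 0.28 (adjusted p = 0.0579, DESeq2) in knockdown over LacZ control in the authors' deposited table. Gm28867 had -1.04 ± 0.34 (adjusted p = 0.0783, DESeq2) in it. Zcchc10 fell by 0.91 ± 0.21 (adjusted p = 0.0132, DESeq2) in the authors' deposited table. This likeness covers 2 comparisons that share the LacZ libraries and is a description.

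Proteins that act at pericentromeric heterochromatin were followed as a list of 48 genes, all with an adjusted p in each comparison. Apart from the targeted Suv39h2, DESeq2 called none of them in knockdown versus LacZ control, where it called 0.899% of all genes. At an unadjusted p under 0.05 were 10 of the 48, Suv39h2 included, a mark that 8.13% of all genes reached. The list's median log2 fold change was -0.24, beside 0.02 over all genes. Suv39h1, the second methyltransferase of this mark, had -0.33 ± 0.19 (adjusted p = 0.419, DESeq2) in the authors' deposited table. The HP1 genes, whose proteins bind the mark, had 0.49 ± 0.23 for Cbx1 (adjusted p = 0.274, DESeq2), -0.53 ± 0.25 for Cbx3 (adjusted p = 0.289) and -0.03 ± 0.20 for Cbx5 (adjusted p = 0.963) in the authors' deposited table.

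In knockdown versus non-injected, 6 of the 48 were called lower and 2 higher, where 7.76% of all genes were called lower and 7.41% higher. An unadjusted p under 0.05 from DESeq2 was reached by 11 of the 48 and by 14.8% of all genes. No reading is drawn from these counts. The list median was -0.24, beside 0.03 over all genes. Those named here beyond Suv39h1, Suv39h2 and the HP1 genes were picked after their values were seen. Suv39h2 fell by 1.79 ± 0.29 (adjusted p = 2.21e-06, DESeq2) in the authors' deposited table. The histone demethylase Kdm4c fell by 0.84 ± 0.23 (adjusted p = 0.00618, DESeq2) and the methyltransferase Ehmt1 by 0.66 ± 0.21 (adjusted p = 0.0191) in the authors' deposited table. Incenp, of the chromosomal passenger complex, fell by 0.87 ± 0.27 (adjusted p = 0.0206, DESeq2), Rif1, a regulator of replication timing, by 0.67 ± 0.20 (adjusted p = 0.0146) and the centromeric histone Cenpa by 0.50 ± 0.16 (adjusted p = 0.0188). Cbx1 rose by 1.05 ± 0.24 (adjusted p = 0.000779, DESeq2) and Prdm16, a histone methyltransferase, by 1.24 ± 0.37 (adjusted p = 0.0145) in the authors' deposited table. Suv39h1 had -0.46 ± 0.20 (adjusted p = 0.101, DESeq2), Cbx3 -0.12 ± 0.26 (adjusted p = 0.813) and Cbx5 -0.20 ± 0.21 (adjusted p = 0.547) in the authors' deposited table. In LacZ control versus non-injected DESeq2 called 0 of the 48, where it called 0.792% of all genes. At an unadjusted p under 0.05 were 2 of them, a mark that 6.55% of all genes reached, and the list median was -0.03.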

How the data were processed

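The members and gene lists were chosen with earlier results of these data known. Input were 6 tables of the authors' own comparisons, 3 of genes and 3 of repeats, covering 16 libraries in 3 groups; they hold 0 columns of single libraries, so nothing was refitted, and depth per library is unknown. Per the submitters' processing notes, the tools included STAR 2.5.2b, SAMtools, HTSeq 0.9.1 and DESeq2 1.18.1, and the build was GRCm38.p5. RUVSeq and shrinkage are known only from the table names, with the annotation release, the handling of reads with several matches and the assignment of reads to repeats not given in the sources used here. Each table holds, per the file headers, a mean normalized count, a signal over libraries. Per the file headers, they hold a log2 fold change and its standard error, which shrinkage pulls towards zero at low counts. A Wald statistic, a score, and its p-value and adjusted p-value are also deposited. The gene tables share 1 normalization; the repeat tables do not share theirs, so mean counts of repeats are not compared across comparisons.

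Gene names (49326 of 49585 identifiers matched), coordinates and transcripts came from GENCODE M21 on GRCm38. No genome was used, so satellite words of 24 bases were taken from the 18 transcripts of the chromosome 9 members in place of a genomic array, leaving out a member's own gene for its own share. Exons were aligned with Biopython 1.88 to the unit repeated end to end. Word search and p-value adjustment were tested on simulated data. Tools were Python 3.11.15, pandas 2.3.3, numpy 2.4.6 and matplotlib 3.10.9. The genes named are the members, other satellite repeats and gene models (at least 0.5 of their words), the nearest gene with an adjusted p beside each cluster, the 5 genes of most like pattern, and of the pericentromere list Suv39h1, Suv39h2, the HP1 genes and those called against the LacZ control; others are said to be picked later. Alternatives were other sets of genes or repeats for Benjamini-Hochberg adjustment, thresholds of 0.1 and 0.01 for 0.05, minimum mean counts of 10 and 100, the deposited statistic times its standard error in place of the fold change, members left out, words of 16 and 31 bases and word shares of 0.2 and 0.8.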

Additional observations from a re-analysis of the deposited data

How the results depend on the processing

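Of 37 values recomputed under an alternative, 31 kept their side of the threshold or stayed within their spread, 4 counts moved by over 1.5 times and 2 calls were lost. In knockdown versus LacZ control, 2 member genes were called as deposited, and 1 was called with adjustment over every gene with a p-value, 1 at an adjusted p under 0.01, and 0 among genes with a mean count of 100 or more, where Gm10800 is the single member left to test. In knockdown versus non-injected, 0 were called as deposited and 2 at an adjusted p under 0.1. The adjusted p of GSAT_MM in that comparison, 0.0231 as deposited, was 0.108 over the repeats alone and 0.0579 over repeats and genes together; in knockdown versus LacZ control it was 0.0335 and 0.0255 beside 0.0182. The members' median share of words found in other members was 81.1% for words of 24 bases, 87.6% for 16 and 73.9% for 31. No paired analysis was possible because the tables hold no values of single libraries. For the same reason leaving out each replicate in turn could not be run, and the depth behind each value is unknown.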
